A study of Bos taurus with 12 samples.

Results

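The 10 genes described here encode the core enzymes of mitochondrial fatty acid beta-oxidation: the acyl-CoA dehydrogenases ACADVL, ACADL, ACADM and ACADS, the trifunctional protein subunits HADHA and HADHB, the 3-hydroxyacyl-CoA dehydrogenase HADH, the thiolase ACAA2, and the enoyl-CoA isomerases ECI1 and ECI2. They were chosen by symbol, and each symbol matched 1 Entrez gene among the 30336 genes in the count files. The libraries were made from liver of Holstein heifer calves, taken by puncture biopsy at 4 d of age. Their dams received a control diet (CON) or the same diet with ethyl-cellulose rumen-protected methionine (MET) over the last 28 d before calving, and all calves were fed and managed alike after birth, so the comparison was between maternal diets. Each diet had 6 poly(A)-selected, strand-specific RNA-seq libraries.

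In beta-oxidation, a fatty acyl-CoA inside the mitochondrion is shortened from its carboxyl end by repeated rounds of dehydrogenation, hydration, a second dehydrogenation and thiolytic cleavage, and each round releases acetyl-CoA and reduced electron carriers. The acyl-CoA dehydrogenases divide the first step among themselves by chain length, the trifunctional protein on the inner membrane carries out the later steps for long chains, and soluble matrix enzymes take over for shorter ones. In the liver of a newborn fed milk, this pathway feeds ketone body formation and supplies energy for glucose synthesis, and PPARA is the nuclear receptor best known for turning on its genes.

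The libraries held between 8277789 and 10397604 reads counted to genes, so a count of 3 reads stood for 0.277 to 0.377 CPM (the counted reads scaled to a common library size), far below the level of each of the 10 enzymes. Of the 30336 genes, 21227 had a read, 13212 passed the filter on low counts, and 10 of the 10 enzymes were among them. CON replicates 1 and 4 were nearly the same library, as were MET replicates 1 and 3: their counts differed by a chi-square per gene of 1.33 and 1.24, near what sampling noise alone gives, against 25.2 to 133 for the other 64 of 66 library pairs. Both pairs carried the same 2 second index sequences. The libraries are described as coming from separate calves, and whether a pair is the same calf, a library sequenced again or a misassigned index cannot be told apart from the files. Each of these pairs was therefore taken as 1 sample, which left 5 samples per diet for every mean, SD and sample value below, while tests were made both on the 12 libraries, where FDR at most 0.10 was called, and on the 10 samples. The summed level of 8 hepatocyte markers was 141924 to 195914 CPM in CON and 117331 to 153958 CPM in MET, whereas 7 striated muscle markers together stayed at or below 0.313 CPM, with ACTA1, CKM and MYL1 at 0 reads. The CON libraries carried 1 first index sequence and the MET libraries another, so an effect of the index and one of the diet cannot be told apart.

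Among the 10 enzymes, only ACADM passed the threshold between diets, and with edgeR it did so over the 12 libraries but not over the 10 samples. ACADM, the medium-chain acyl-CoA dehydrogenase, lies on the minus strand of chromosome 3 (build UMD 3.1.1, 69344152 to 69382579, 12 exon blocks). In the CON samples its level was 157 CPM in replicates 1 and 4, 129 CPM in replicate 2, 197 CPM in replicate 3, 141 CPM in replicate 5 and 249.9 CPM in replicate 6. In the MET samples it was 109.6 CPM in replicates 1 and 3, 118 CPM in replicate 2, 124 CPM in replicate 4, 55.7 CPM in replicate 5 and 95.9 CPM in replicate 6. The diets did not overlap: the highest MET sample lay below the lowest CON sample, with or without MET replicate 5, a separation that 3.71% of all genes tested also had in 1 direction or the other. The mean was 175 ± 49.1 CPM in CON and 101 ± 27.3 CPM in MET (SD, n = 5).

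Fitted over the 12 libraries, ACADM fell by 0.75 on the log2 scale in MET (SE 0.20, edgeR quasi-likelihood test with Benjamini-Hochberg adjustment over 13212 genes, adjusted p = 0.0798), so its level in CON was 1.68-fold that in MET. This 1 gene of 10 stood against a background of 4.41% of all genes called, and 2.32% called lower in MET. Over the 10 samples the difference was -0.79 (SE 0.23, 95% interval -1.30 to -0.29) with an edgeR adjusted p of 0.181, and the call was lost. At that sample number edgeR called 0.0% of all genes, while 16.4% had an unadjusted p at or under 0.05, and ACADM alone of the 10 enzymes was among these (unadjusted p = 0.00528). DESeq2 over the same 10 samples called 5.23% of the genes to which it gave an adjusted p, ACADM among them with an adjusted p of 0.0467, and none of the other 9 enzymes. Leaving out 1 of the 12 libraries kept the fitted difference of ACADM between -0.82 and -0.61, but the call was lost without CON replicate 1, 3, 4 or 6 and without MET replicate 1, 3 or 6, with edgeR adjusted p values of 0.104 to 0.135. Bulk RNA of a biopsy does not tell fewer cells with the transcript from less transcript per cell. ACADM was also among the genes that the study had singled out from these libraries, so its call is not independent of that choice. Markers of other liver cells also differed between the libraries: 2 of 8 Kupffer cell and macrophage markers were called, and their summed level was 1318 to 1749 CPM in CON and 1553 to 2068 CPM in MET, with none at 0. Likewise 1 of 8 stellate cell and fibroblast markers and 1 of 4 tested cholangiocyte markers were called. Of the other lists, 0 of 8 hepatocyte, 0 of 7 endothelial, 0 of 3 tested lymphocyte and 0 of 2 tested erythroid markers were called. The part of any of these cells in the level of ACADM was not tested.

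**Figure D1:**
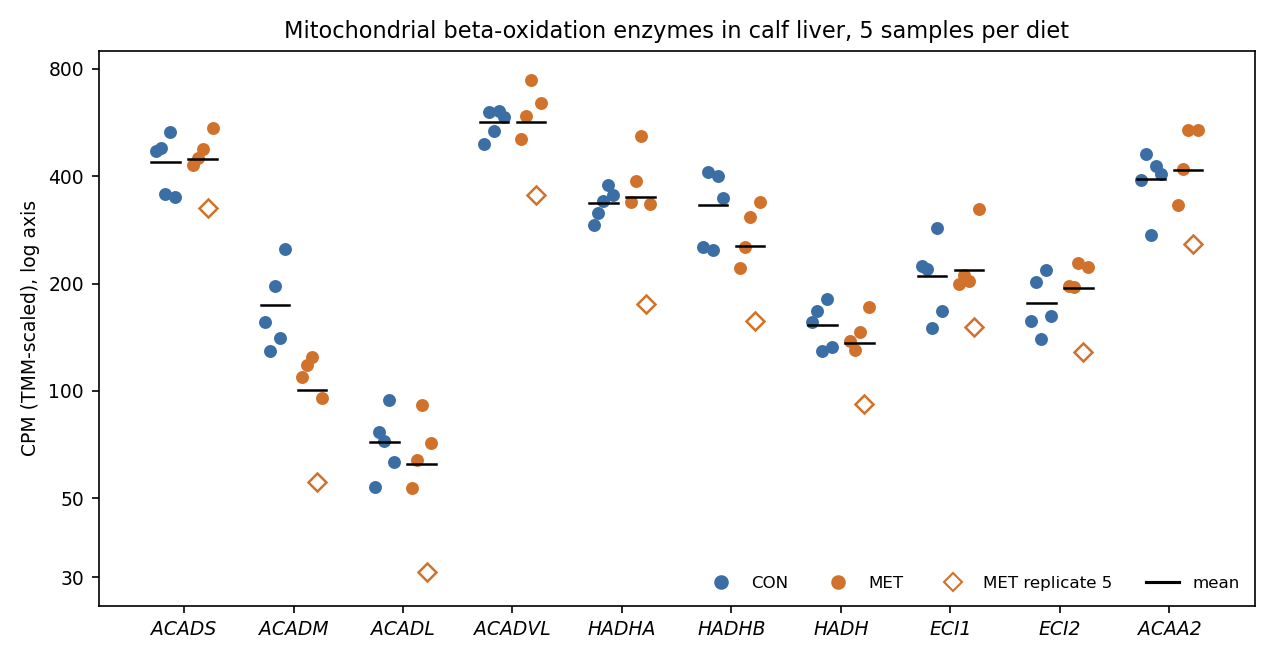
TMM-scaled CPM (log axis) of the 10 enzymes in each of the 5 CON (blue) and 5 MET (orange) samples, with black lines for the means and an open diamond for MET replicate 5. ACADM is the 1 gene whose diets do not overlap, 129 to 249.9 CPM in CON against 55.7 to 124 CPM in MET, and the diamond is the lowest point of 9 of the 10 genes.

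The other acyl-CoA dehydrogenases did not share this separation. ACADVL acts on very long chains and is encoded on the plus strand of chromosome 19 (27568181 to 27573378). Its level ran from 493 to 609 CPM over the CON samples and from 354 to 746 CPM over the MET samples, with medians of 588 and 591 CPM. The fitted difference over the 12 libraries was 0.01 on the log2 scale (95% interval -0.33 to 0.35). Over the 10 samples the interval was -0.40 to 0.40. A change of the size fitted for ACADM lay outside both. ACADL, the long-chain enzyme (chromosome 2, minus strand, 98416083 to 98457047), was the lowest of the 10. It stood at 53.7, 76.8, 72.5, 94.2 and 63.4 CPM in CON replicates 1 and 4, 2, 3, 5 and 6, and at 53.5, 64.0, 91.2, 31.0 and 71.5 CPM in MET replicates 1 and 3, 2, 4, 5 and 6. Apart from MET replicate 5 the MET samples spanned nearly the CON range, and the fitted difference was -0.18 (SE 0.22, edgeR adjusted p = 0.672), or -0.05 without that library (edgeR adjusted p = 0.913).

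ACADS, the short-chain dehydrogenase (chromosome 17, plus strand, 65220577 to 65237486), ranged from 351 to 532 CPM in CON and from 325 to 547 CPM in MET. Its means were 438 ± 79.9 and 446 ± 80.6 CPM (SD, n = 5), and its fitted difference was 0.00 (95% interval -0.31 to 0.31). Among the 4 dehydrogenases of straight chains, therefore, the diets separated for the medium-chain enzyme and overlapped for the other 3.

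HADHA and HADHB encode the alpha and beta subunits of the mitochondrial trifunctional protein. The alpha subunit holds the long-chain enoyl-CoA hydratase and 3-hydroxyacyl-CoA dehydrogenase activities, and the beta subunit the long-chain thiolase. The genes lie head to head on chromosome 11, HADHA on the plus strand (73251925 to 73288804) and HADHB on the minus strand (73215423 to 73246308), with 5616 bases between them. HADHA stood at 292, 316, 341, 379 and 355 CPM in CON replicates 1 and 4, 2, 3, 5 and 6, and at 338, 387, 517, 175 and 334 CPM in MET replicates 1 and 3, 2, 4, 5 and 6. The CON samples lay close together, with a coefficient of variation of 10.1%, whereas MET replicates 4 and 5 were the highest and the lowest of all 10 samples and the coefficient in MET was 35.1%, or 21.7% without MET replicate 5. The fitted difference of HADHA was 0.08 (SE 0.19, edgeR adjusted p = 0.850).

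HADHB was at 253, 411, 249, 400.1 and 349 CPM in the CON samples in the same order, and at 221, 254, 307, 157 and 338 CPM in the MET samples. The diets overlapped, although MET replicates 1 and 3 and MET replicate 5 lay below each CON sample. Its fitted difference, -0.35 (SE 0.20, 95% interval -0.77 to 0.07), was the largest after that of ACADM and did not pass the threshold (edgeR adjusted p = 0.324, and 0.416 over the 10 samples). Set per length of exon, HADHA exceeded HADHB in each of the 10 samples, by a ratio of 1.56 ± 0.33 in CON and 2.03 ± 0.45 in MET (SD, n = 5). The ratio ran from 1.14 to 2.03 in CON and from 1.47 to 2.5045 in MET, so the diets overlapped there too.

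HADH and ACAA2 complete the round in the matrix, HADH as the 3-hydroxyacyl-CoA dehydrogenase of shorter chains and ACAA2 as a 3-ketoacyl-CoA thiolase. HADH (chromosome 6, minus strand, 18459379 to 18502809) was 153 ± 22.5 CPM in CON and 136 ± 29.2 CPM in MET (SD, n = 5), with ranges of 129 to 182 and 92.0 to 172 CPM. ACAA2 (chromosome 24, minus strand, 49908124 to 49942869) was 392.4 ± 71.5 CPM in CON and 418 ± 125 CPM in MET, and MET replicates 4 and 6, at 540.0 and 541 CPM, exceeded the highest CON sample at 463 CPM. Neither passed the threshold, with fitted differences of -0.17 (95% interval -0.48 to 0.13, and -0.08 without MET replicate 5) for HADH and 0.04 (95% interval -0.36 to 0.44) for ACAA2.

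ECI1 and ECI2 shift the double bond of unsaturated acyl chains so that they can enter the round, and ECI2 is also found in peroxisomes. ECI1 (chromosome 25, minus strand, 1767070 to 1779723) ranged from 149.8 to 287 CPM in CON and from 151 to 325 CPM in MET, and its fitted difference was 0.02 (95% interval -0.38 to 0.42). ECI2 (chromosome 23, plus strand, 49909573 to 49924201) ranged from 139.5 to 219 CPM in CON and from 128 to 228 CPM in MET, with a fitted difference of 0.17 (95% interval -0.15 to 0.50), or 0.27 without MET replicate 5. ECI2 shares exon bases with 1 gene on the opposite strand, and the counting used strand. For none of the other 9 genes did the annotation place a gene over its exons.

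**Figure D2:**
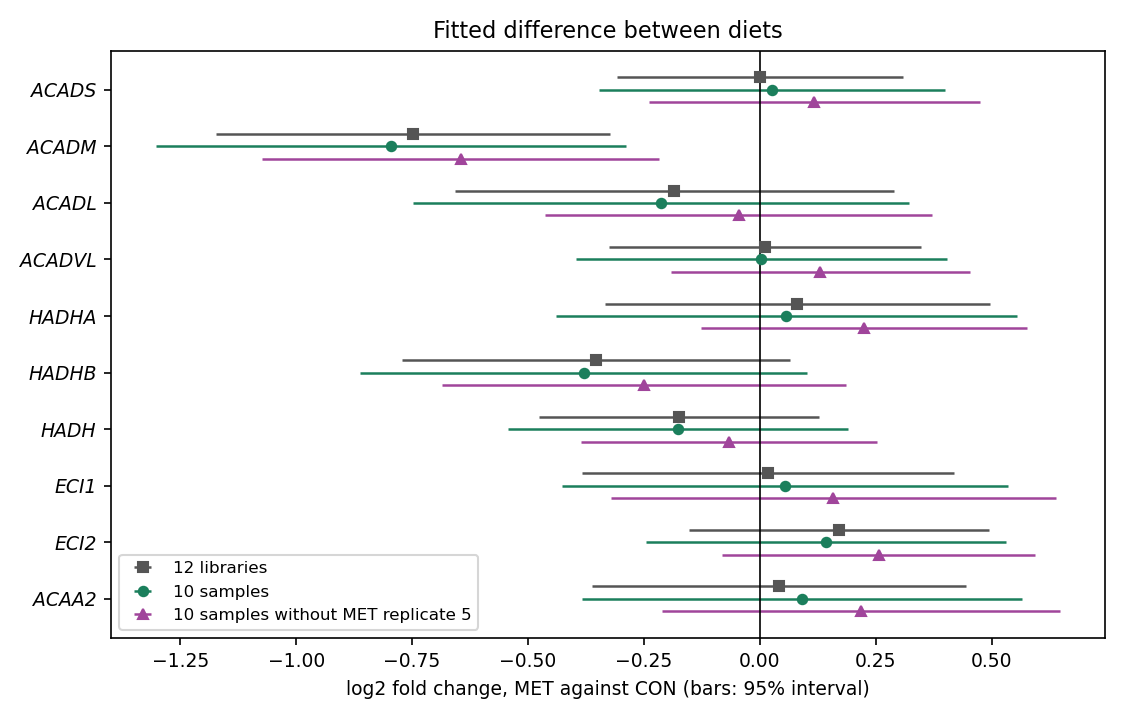
Fitted log2 fold change of MET against CON with its 95% interval for the 12 libraries (squares), the 10 samples (circles) and the 10 samples without MET replicate 5 (triangles). ACADM lies at -0.75, -0.79 and -0.65, and its 3 intervals stay below 0, while each interval of the other 9 genes crosses 0.

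To set aside differences that the 10 enzymes share within a sample, each enzyme was expressed against the mean log2 CPM of the other 9. On that scale ACADM lay 0.56 ± 0.55 below the other enzymes in CON and 1.30 ± 0.25 below them in MET, means whose sample values overlapped narrowly, from -1.11 to 0.07 in CON and from -1.64 to -1.05 in MET. For ACADM, CON replicates 2 and 5 were the CON samples nearest to MET. ECI2 was the only enzyme whose diets did not overlap on that scale, from -0.66 to -0.39 in CON and from -0.29 to -0.11 in MET. With ACADM also left out of the reference, its highest CON value was -0.52 and its lowest MET value -0.48. The difference of ECI2 on that scale was not tested. Per length of exon, ACADM made up 3.92% to 8.35% of the summed level of the 10 enzymes in CON and 2.62% to 3.97% in MET.

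MET replicate 5 had the lowest level of all 10 samples for 9 of the 10 enzymes, ECI1 being the exception, and the lowest of the 5 MET samples for 10 of the 10. Over all genes tested, 9.66% had their lowest level in that sample. Relative to the mean of the other MET samples, its level was between 0.442-fold (ACADL) and 0.683-fold (ACADS), with a median log2 difference of -0.82 over the 10 enzymes against -0.02 over all genes. Summed per length of exon, the 10 enzymes reached an RPKM (CPM divided by the exon length in kilobases) of 868 in MET replicate 5, whereas the other 9 samples lay between 1172 and 1655 RPKM. The sample was not shallow, with 10010787 counted reads, and its hepatocyte markers summed to 153958 CPM, the highest of the MET samples, although 4 of the 8 had their lowest level of the 10 samples there. The summed level of cholangiocyte markers, 30.5 CPM, was the lowest of the 10 samples. Of 8 Kupffer cell and macrophage markers, 6 had their lowest level of the MET samples there. The summed erythroid markers, 57.4 CPM, were the lowest of the MET samples, and the lymphocyte markers, 51.5 CPM, the highest of all 10. The library stood apart over the whole transcriptome too, with a chi-square per gene of 51.0 to 133 to each other library, whereas pairs without it reached at most 81.2.

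Some of the lists around the pathway were low in MET replicate 5 and others were not. Of 12 other mitochondrial proteins (citrate synthase, respiratory chain subunits, import and channel proteins), 9 had their lowest level of the 10 samples in MET replicate 5, as had 3 of 4 electron transfer genes and 4 of 7 genes of the carnitine shuttle. Nearer to the 9.66% of all genes were fatty acid activation with 1 of 11 genes lowest there, the auxiliary mitochondrial steps with 2 of 11, and peroxisomal beta-oxidation with 2 of 11. The acyl-CoA dehydrogenases of branched chains and lysine had 1 of 4, ketone body synthesis 1 of 2 and the regulators 7 of 17. Without that sample the fitted differences of 10 of the 10 enzymes shifted upward, ACADM to -0.65 (SE 0.20, edgeR adjusted p = 0.258) and HADHA to 0.22 (SE 0.16, edgeR adjusted p = 0.538). The part that sample composition or RNA quality had in this was not tested.

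**Figure D3:**
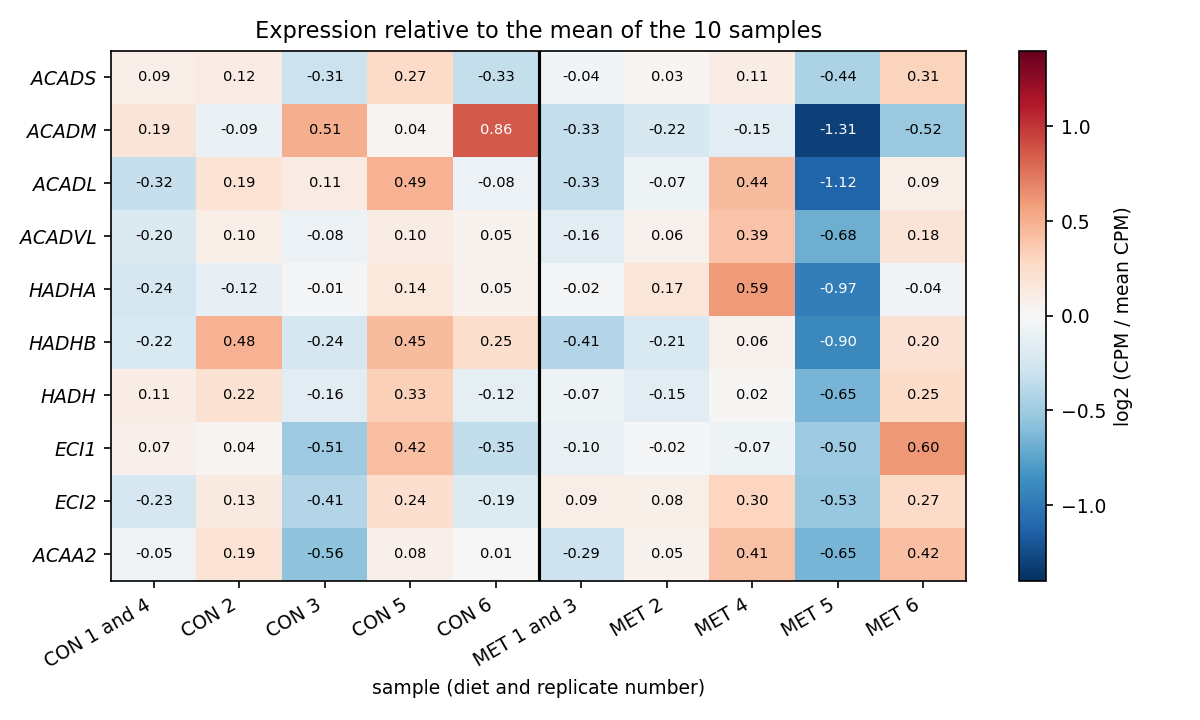
Log2 ratio of each enzyme's CPM in a sample to its mean over the 10 samples, with CON samples left and MET samples right of the black line (red above the mean, blue below). The column of MET replicate 5 is blue throughout, from -1.31 for ACADM to -0.44 for ACADS, and the ACADM row is negative in 5 of 5 MET samples.

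Compared per length of exon, the 10 enzymes differed widely in level, and each stood high in the liver transcriptome. ACADVL was highest with a mean of 266 ± 48.6 RPKM over the 10 samples (SD), followed by ACAA2 at 250 ± 59.8, ACADS at 222 ± 38.1 and ECI1 at 157 ± 41.0 RPKM. HADHA (131 ± 32.6), ECI2 (104 ± 20.1), HADH (81.8 ± 14.8) and HADHB (75.7 ± 20.9 RPKM) formed the middle, and ACADM (62.4 ± 24.5) and ACADL (25.9 ± 7.21 RPKM) the end. The median of all genes tested was 5.14 RPKM, and the enzymes lay between its 83.9th percentile for ACADL and the 97.9th for ACADVL. In this order neighbours differed in the same direction in 10 of 10 samples for 3 pairs, ACADS over ECI1, ECI2 over HADH and ACADM over ACADL. The other neighbours changed places in at least 1 sample, ACADVL and ACAA2 in 3 of 10, so their order was not beyond the spread between samples.

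**Figure D4:**
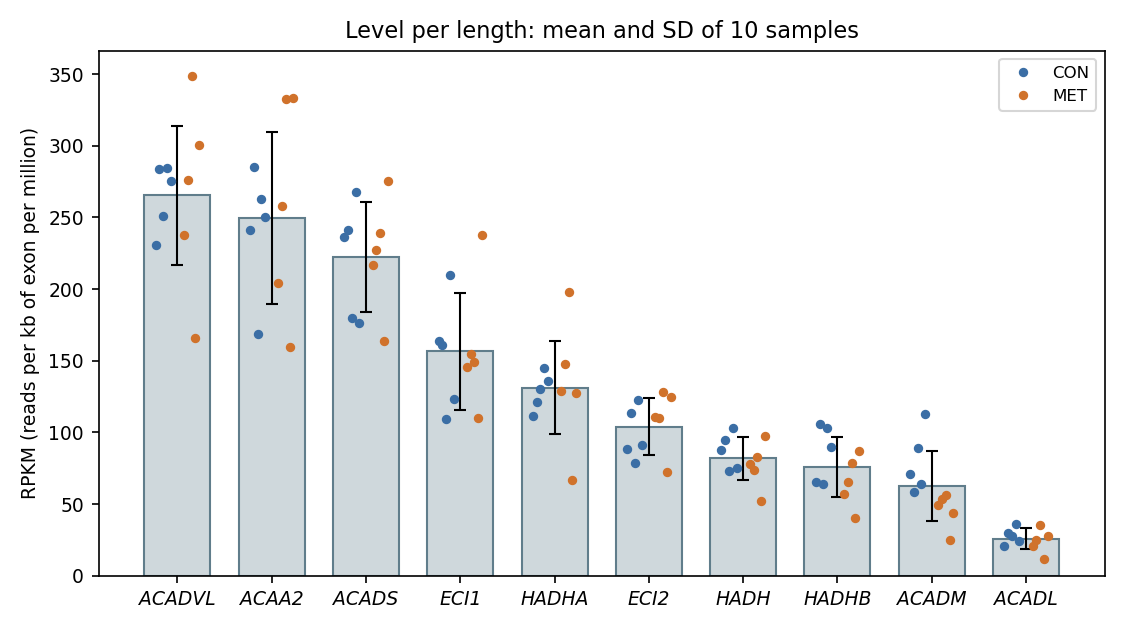
Mean RPKM of each enzyme over the 10 samples (bars, error bars are SD) with the CON (blue) and MET (orange) samples as points, in order of the mean. The means run from 266 RPKM for ACADVL to 25.9 RPKM for ACADL.

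Across samples, 43 of the 45 pairs of enzymes had a positive correlation of log2 CPM, with a median Pearson r of 0.72 (n = 10 samples, the enzymes of a sample sharing its library and scaling). This weakened without MET replicate 5, where the median was 0.44 and 35 pairs stayed above 0. The pairs below 0 there all held ACADM or HADHA. ACADM changed most, from a median r of 0.38 with the other enzymes to -0.42 without that sample, and its lowest pair there was with ACADS (r = -0.78). The diet means were left in these values. With them subtracted, the median r of ACADM over the 10 samples was 0.30. These r values are descriptions and were not tested.

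A test was made for 3 pairs. ECI1 and ECI2 were positively correlated (r = 0.78, permutation p = 0.00775, adjusted over the 3 pairs p = 0.0232, rho = 0.64, permutation p = 0.0539 and adjusted p = 0.0809, n = 10), and r was 0.71 and rho 0.43 without MET replicate 6 and CON replicate 3, the samples farthest from the median of ECI1. HADHA and HADHB gave r = 0.61 (permutation p = 0.0633, adjusted p = 0.0633) and rho = 0.31 (permutation p = 0.388, adjusted p = 0.388), and without MET replicates 4 and 5 r was 0.12, so the relation rested on those samples. ACADM and PPARA gave r = 0.63 (permutation p = 0.0491, adjusted p = 0.0633) and rho = 0.88 (permutation p = 0.00161, adjusted p = 0.00483), and r was 0.73 without MET replicate 5 and CON replicate 6. Both genes were separate between the diets, however, and with the diet means subtracted r was 0.11 (permutation p = 0.752, adjusted p = 0.752) and rho was 0.35 (permutation p = 0.329, adjusted p = 0.329), the deviations being permuted as if free. A relation between ACADM and PPARA within the diets was thus not detected with 10 samples.

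Around the 10 enzymes, lists of 84 other genes of fatty acid oxidation, its regulators and mitochondria were examined, of which 79 passed the filter and 4 were called over the 12 libraries, a share of 5.06% beside 4.41% of all genes tested. Entry into the mitochondrion runs through the carnitine shuttle. Of its 7 genes 1 was called, CPT1A, the outer-membrane enzyme that sets the rate of entry, at 287 ± 55.1 CPM in CON and 197 ± 32.7 CPM in MET (SD, n = 5, log2 difference -0.55, edgeR adjusted p = 0.0846), with overlapping samples. CPT2 and SLC25A20, the inner-membrane transferase and the carrier between them, were not called, and neither was any of 11 genes of fatty acid activation. Among the latter, SLC27A2, a fatty acid transport protein with acyl-CoA synthetase activity, was 48.0 ± 32.5 CPM in CON and 22.7 ± 16.8 CPM in MET, with overlapping samples. Its log2 difference was -1.41 over the 12 libraries (edgeR adjusted p = 0.183) and -1.09 over the 10 samples. ACSM3, a medium-chain acyl-CoA synthetase, was 166 ± 30.3 CPM in CON and 110.5 ± 33.3 CPM in MET (edgeR adjusted p = 0.173), and ACSL1, a long-chain one, 861 ± 49.3 and 639.5 ± 191 CPM (edgeR adjusted p = 0.232).

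Among 11 auxiliary genes of mitochondrial oxidation, ECH1 rose. It encodes a dienoyl-CoA isomerase for unsaturated chains and was 139 ± 10.4 CPM in CON and 197 ± 26.1 CPM in MET (log2 difference 0.45, edgeR adjusted p = 0.0674), with each MET sample above each CON sample. The electron transfer genes (4 tested), the acyl-CoA dehydrogenases of branched chains and lysine (4 tested), ketone body synthesis (2 tested of 3) and the 12 other mitochondrial proteins held no called gene. The median log2 difference over the 10 samples was 0.01 for the 10 enzymes, 0.06 for the other mitochondrial proteins and -0.002 for all genes tested. Without MET replicate 5 these medians were 0.12, 0.16 and -0.005.

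Peroxisomal beta-oxidation, which shortens chains too long for mitochondria, had 1 of 11 genes called, lower in MET. SCP2, whose peroxisomal form is a thiolase, was 608 ± 78.1 CPM in CON and 338 ± 61.3 CPM in MET (log2 difference -0.84, edgeR adjusted p = 0.0381), and its diets did not overlap. The list's median was -0.31 over the 10 samples, with 9 of 11 genes lower in MET. The carnitine shuttle had a like median of -0.30 with 5 of 7 genes lower, fatty acid activation one of -0.21 with 9 of 11 lower, and the auxiliary mitochondrial steps one of -0.08 with 8 of 11 lower. Without MET replicate 5 the medians were -0.28 for the peroxisomal list, -0.24 for the carnitine shuttle, -0.13 for activation and -0.02 for the auxiliary steps. Of all genes tested, 6660 of 13212 were lower. Of 17 regulators tested, PPARA alone was called, at 17.9 ± 1.57 CPM in CON and 13.1 ± 2.00 CPM in MET (log2 difference -0.42, edgeR adjusted p = 0.0849), and its diets did not overlap. Each of these calls was lost over the 10 samples, where the edgeR adjusted p of CPT1A, ECH1, SCP2 and PPARA ran from 0.155 to 0.183.

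**Figure D5:**
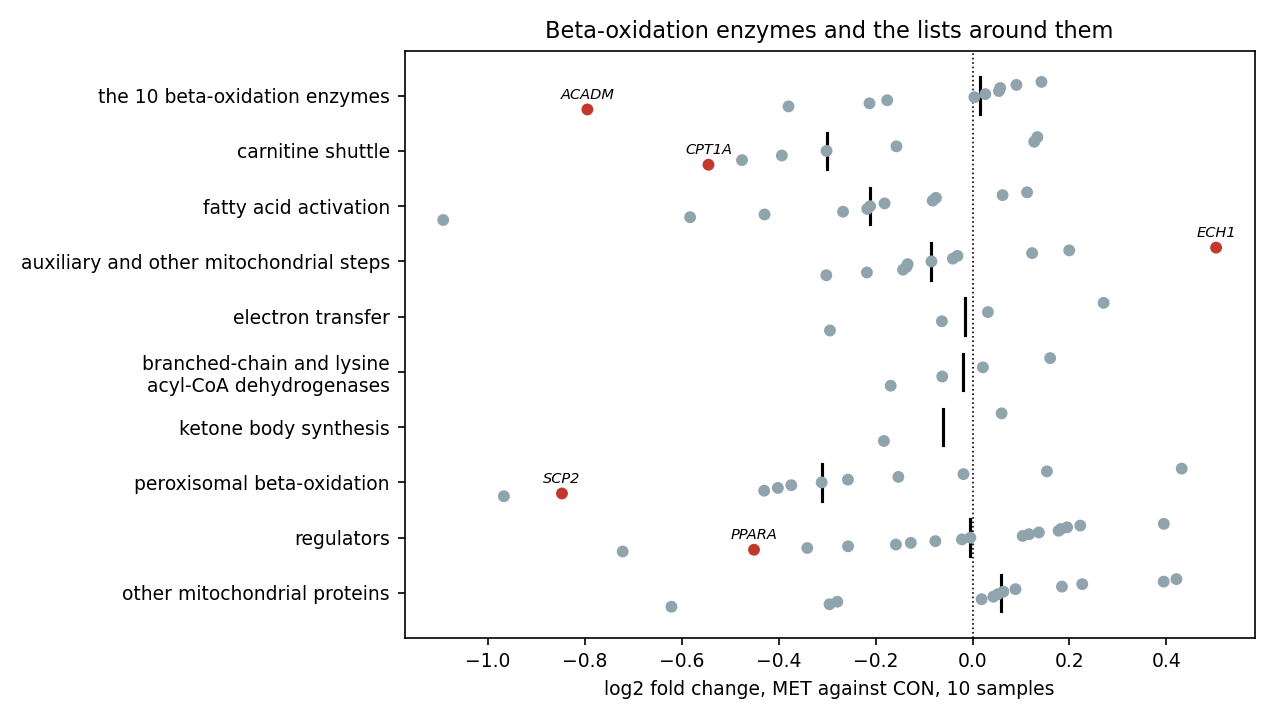
Log2 fold change of MET against CON over the 10 samples for the tested genes of each list (points), with the list's median as a black line and genes with an edgeR adjusted p at most 0.10 over the 12 libraries in red. ACADM lies at -0.79 while the median of the 10 enzymes is 0.01, and the peroxisomal list has its median at -0.31.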

How the data were processed

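Per the study's methods and the labels, RNA from liver biopsies was sequenced single-end in 1 lane after poly(A) selection and strand-specific library preparation. The authors trimmed adaptors with Trimmomatic, checked reads with FastQC 0.11.15, aligned them to UMD 3.1.1 with STAR 2.5.3a and made the deposited counts, whole reads per Entrez gene, with featureCounts of Subread 1.5.2. Reads with several alignments or several genes were not counted, which lowers genes with near copies. The files held 0 further columns of samples.

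Counts were tested with edgeR 4.0.16 (R 4.3.3) by the quasi-likelihood test with TMM factors, filterByExpr (count 10) and diet as the 1 term, with FDR at most 0.10 called, as in the study. All 12 libraries entered, and a second fit summed each near-identical pair to 1 sample, since the 12-library fit counts nearly identical libraries as separate replicates. CPM were TMM-scaled, and RPKM divided them by exonic length. DESeq2 1.42.0 and limma 3.58.1 served as alternatives. The procedure was tested on simulated data. Correlations used 100000 permutations, two-sided. Gene symbols came from the bovine RefSeq gene table. The enzymes, the surrounding lists and the tests were chosen with earlier results of these data known. The rule for genes of the lists took the called genes, up to 3 others of each list with the largest change, and PPARA, CPT1A, CPT2 and SLC25A20. Of those not called, a few are named in the text. The study gives 1 library per calf and 6 calves per diet, while the counts of the near-identical pairs differ by little more than sampling noise. Some genes of the lists are not reported here and were left out of the lists' counts and medians. Other files, genome sequence and protein sequence were not used here.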

Additional observations from a re-analysis of the deposited data

How the results depend on the processing

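Of the 28 alternatives to the 12-library edgeR fit, 14 called ACADM and 14 called none of the 10 enzymes. The count of all genes called was 583, and it became 107 with library sizes alone (66.4% of them higher in MET, against 47.3%, and 39.8% with upper quartile factors), 1314 with DESeq2, 914 with the likelihood-ratio test, 238 without a filter and 253 with the gene length trend removed. It was 0 for 10 samples, for 8 libraries without the near-identical pairs, for 10 samples with the length trend removed and for 10 samples without MET replicate 5, the length trend on 10 samples and the omission of MET replicate 5 being chosen after the data were seen, as was DESeq2 on 10 samples, which called 624. The call of ACADM was lost also with library sizes alone and without a filter, and its log2 difference stayed between -0.86 and -0.61 in the settings that lost the call. Leaving out 1 library gave 26 to 565 genes and 0 to 1 enzymes.

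Same-numbered CON and MET libraries did not deviate together (r -0.20 to 0.16, 1 of 6 above 0.1, 0 of 6 best with its own number). With the replicate block 6 genes and 0 enzymes were called.

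Enzymes with a log2 difference near 0 changed sign. ACADS went to -0.0195 with upper quartile factors, -0.031 with the length trend removed and -0.0021 with that on 10 samples. ACADVL went to -0.0102 with upper quartile factors, -0.0206 with voom, -0.0046 with 8 libraries, -0.0198 with the replicate block, -0.00971 with the length trend removed and -0.0138 with that on 10 samples. ECI1 went to -0.00223, -0.0836 and -0.0484 under the same 3 settings as ACADS, and ACAA2 to -0.0266 with the length trend removed. With 1 library left out the ranges were -0.0717 to 0.0762 (ACADS), -0.0894 to 0.113 (ACADVL), -0.335 to -0.0493 (ACADL), -0.257 to -0.0838 (HADH), 0.117 to 0.267 (ECI2), -0.0661 to 0.218 (HADHA), -0.141 to 0.124 (ECI1) and -0.0639 to 0.142 (ACAA2). The cause was not tested.

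The r of HADHA with HADHB was 0.69 (permutation p = 0.0173, adjusted p = 0.026) with diet means subtracted, where rho was 0.35 (permutation p = 0.328, adjusted p = 0.329) and r 0.32 without MET replicates 4 and 5, and 0.087 without MET replicate 5. The r of ACADM with PPARA was 0.76 with library sizes alone (permutation p = 0.00577, adjusted p = 0.00865). Without MET replicate 5 it was 0.76 (permutation p = 0.0180, adjusted p = 0.0474). The diet means were not subtracted in either. For ECI1 with ECI2, r was 0.72 (permutation p = 0.0316, adjusted p = 0.0474) and rho 0.52 (permutation p = 0.164, adjusted p = 0.245) without MET replicate 5. Mean RPKM moved by less than 1 SD in the 40 comparisons made. The number of samples, 5 per diet, limits these comparisons. Apart from those marked as over the 10 samples, the printed 95% intervals come from the 12-library fit, which counts the near-identical pairs as separate replicates. Over the 10 samples the intervals were wider, as for ACAA2 at -0.38 to 0.56 against -0.36 to 0.44.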

Other observations

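The genes whose log2 CPM followed each enzyme most closely, after the diet means were subtracted, were taken as the highest Pearson r among 13211 other genes over the 10 samples. These values are descriptions, since with so many genes and 10 samples high r values arise at the top of any such ranking. They include MET replicate 5, the lowest sample for 9 of the 10 enzymes and for CPT2, and the ranking was not repeated without it. HADH was second for ACADS and ACADS was second for HADH (r = 0.96), and ACADVL was second for ACADL (r = 0.95). CPT2, the carnitine palmitoyltransferase of the inner membrane, was first for ACADL (r = 0.96) and second for ACADVL (r = 0.97). MPC1, a subunit of the mitochondrial pyruvate carrier, was at rank 3 for ACADVL and for HADHA (r = 0.96 each), and UQCRC2 of respiratory complex III was second for HADHA (r = 0.96).

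For HADHB, SCRIB (r = 0.98) and FHL3 (r = 0.95) were among the closest genes. ECI1 followed IDUA (r = 0.99) and ECI2 followed ECHDC2 (r = 0.98), while ACAA2 followed PSMB1 (r = 0.95) and COQ4, of ubiquinone synthesis (r = 0.94). THAP7 was first for ACADS (r = 0.98) and GATD3 for HADH (r = 0.96). ACADM had NCOA5 (r = 0.92), FAM172A (r = 0.92) and TAF4 (r = 0.90) as its closest genes, and the nearest of the other 9 enzymes was HADHA at rank 125. Of the surrounding lists, EHHADH, the bifunctional enzyme of the peroxisome, was 102 ± 28.2 CPM in CON and 52.2 ± 20.6 CPM in MET (SD, n = 5, edgeR adjusted p = 0.110), with overlapping diets. PDK4, a kinase that holds back pyruvate oxidation, was 79.8 ± 28.7 CPM in CON and 48.3 ± 16.4 CPM in MET (edgeR adjusted p = 0.192). Others went the opposite way. COX4I1 was 236 ± 26.6 CPM in CON and 316 ± 96.8 CPM in MET (edgeR adjusted p = 0.186). TIMM23 was 54.8 ± 11.7 and 72.0 ± 15.3 CPM (edgeR adjusted p = 0.212), both with overlapping diets. Of the 12 other mitochondrial proteins, 9 were higher and 3 lower in MET over the 10 samples.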
